A study of Homo sapiens with 21 samples.

Results

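The leukocyte immunoglobulin-like receptors (LILRs) are a family of cell surface receptors of myeloid and lymphoid cells, and 8 of them, LILRA1, LILRA2, LILRA5, LILRA6, LILRB1, LILRB2, LILRB3 and LILRB4, were taken by symbol from a table of 20423 genes. LILRA4 and LILRB5 also have a row and carried at most 5 and 2 reads in any library. The messages were measured by RNA-seq in THP1, an acute monocytic leukaemia cell line, in 19 libraries. The study asked how the corepressor IRF2BP2 and the bZIP transcription factors ATF7 and JDP2 bear on inflammatory gene expression in these cells.

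IRF2BP2 knockdown cells carried either of 2 short hairpins in the pLKO.1 lentiviral vector, called shRNA 1 and shRNA 2 (3 libraries each), and were set against shRNA control cells (2 libraries). ATF7 knockout and JDP2 knockout cells were made with Lenti-CRISPRv2 constructs, each as 2 clones grown from single cells with 2 libraries a clone, and were set against knockout control cells (2 libraries). A library of wild-type THP1 cells served as 1 further control. All groups share the THP1 background and the same medium. A single clone also carries whatever else sets it apart from the population, so clones are given separately throughout. The labels do not say that replicates came from separate cultures, so the p-values cover variation among these libraries only, and that variation may be technical.

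Libraries held 28650241 to 60196382 reads assigned to genes. All 10 monocytic markers on a fixed list passed the expression filter. Their summed level was 65726 to 191562 normalized counts in IRF2BP2 knockdown (at most 175317 without shRNA 2 replicate 3) and 56824 to 64364 in shRNA control. It overlapped with the knockdown in ATF7 knockout (63392 to 103690), JDP2 knockout (76601 to 154342) and knockout control (53523 to 78608.5). In the knockdown 1 of these markers, ITGAM, rose (log2 change 3.17, limma adjusted p = 0.00533). Of 28 markers of other cell types, 18 averaged under 10 normalized counts over all libraries and none was called in the knockdown. The exceptions at high level were NKG7, which averaged 13372 normalized counts, and the B-cell gene PAX5 at 914. Of the libraries, 3 stood apart, with 25.6% to 48.5% of genes more than 2-fold from the median library, against 3.18% to 14.8% in the other 16: shRNA 1 replicate 3, shRNA 2 replicate 3 and JDP2 knockout clone 1 replicate 2.

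The knockdown itself was read from the IRF2BP2 message, which had 9456, 11109.7 and 9802 normalized counts with shRNA 1 and 12587, 16649 and 25651 with shRNA 2, against 16973 and 18382 in shRNA control. All 3 shRNA 1 libraries and 2 shRNA 2 libraries lay below both controls, shRNA 2 replicate 2 only narrowly. The mean over the 3 shRNA 2 libraries was 18295.5, above the shRNA control mean of 17677. The library labelled IRF2BP2 shRNA 2 replicate 3 lay above both controls and so goes against its label, and values without it are given beside the results it moves most. The ATF7 message had 363 to 645 normalized counts in ATF7 knockout, against 299.9 and 537 in knockout control, and the JDP2 message had 3158 to 5693 in JDP2 knockout, against 3438 and 5085 in knockout control, so both messages overlapped with control. A small edit need not lower a message, and these levels check neither label.

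LILRs have immunoglobulin-like domains outside the cell and lie side by side in the leukocyte receptor complex. Members named LILRA have a short tail and mostly signal through the ITAM-bearing adaptor FcRγ (encoded by FCER1G), which recruits the kinase SYK, whereas LILRB members carry ITIM motifs in their own tails that recruit the phosphatases SHP-1 and SHP-2 (PTPN6 and PTPN11). On monocytes and macrophages the family sets the threshold for activation, and LILRB1 and LILRB2 do so by binding MHC class I molecules. LILRB3 and LILRA6 are a pair whose outer parts are nearly identical and whose signals are opposite.

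The 8 genes lie on chromosome 19 in a pair of groups. In GRCh38 with the GENCODE v29 annotation, the group nearer the centromere runs on the minus strand, with LILRB3 at chr19:54216278-54223506, LILRA6 at chr19:54236592-54242791, LILRB2 at chr19:54273821-54281184 and LILRA5 at chr19:54307070-54313139. After a gap of 259.8 kb the group nearer the telomere runs on the plus strand, with LILRA2 at chr19:54572920-54590287, LILRA1 at chr19:54593582-54602090, LILRB1 at chr19:54617158-54637528 and LILRB4 at chr19:54643889-54670359. Counts were per gene over exons, and close copies can exchange reads. Of the 50-base words in LILRA6 transcripts, 32.7% also occur in LILRB3, and 20.3% of those in LILRB3 occur in LILRA6, so the split of reads between this pair is uncertain. LILRA5 shared 0.882% of its words with any other gene. The exons of LILRA5 overlap those of AC245884.11 over 85 bases, and the exons of LILRA2 overlap those of a long noncoding RNA over 847 bases, and whether counting used strand is not stated in the sources at hand.

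RefSeq promoter windows (GRCh38.p14, 250 bases before to 50 after a start) were found for 7 of the 8 members, 13 windows in all, and LILRA6 is named only. The windows below are shown because LILRB3 and LILRA5 gave large changes in the IRF2BP2 knockdown, because a window of LILRB2 and one of LILRB1 are 90.4% identical although the genes lie in different groups, and because 1 LILRB1 window holds the AP-1 motif, a sequence bound by bZIP dimers. The LILRB3 window is chr19:54222958-54223257 (minus strand), the LILRA5 window chr19:54313117-54313416 (minus strand), the LILRB2 window chr19:54281061-54281360 (minus strand), and the LILRB1 windows are chr19:54630234-54630533 and chr19:54616879-54617178 (plus strand). Each is printed 5′ to 3′ on the strand of its gene, with capitals at matches to the motifs searched.
LILRB3: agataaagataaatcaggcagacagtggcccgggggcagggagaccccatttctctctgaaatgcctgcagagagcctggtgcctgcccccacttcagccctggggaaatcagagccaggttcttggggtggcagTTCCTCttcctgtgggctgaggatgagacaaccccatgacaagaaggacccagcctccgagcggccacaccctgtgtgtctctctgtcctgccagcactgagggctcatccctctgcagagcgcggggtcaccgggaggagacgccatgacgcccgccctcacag
LILRA5: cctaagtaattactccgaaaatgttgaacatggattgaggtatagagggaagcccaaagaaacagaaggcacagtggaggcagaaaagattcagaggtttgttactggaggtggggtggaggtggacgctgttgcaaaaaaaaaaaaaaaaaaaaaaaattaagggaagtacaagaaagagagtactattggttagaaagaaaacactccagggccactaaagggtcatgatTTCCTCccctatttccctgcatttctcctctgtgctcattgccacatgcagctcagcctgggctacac
LILRB2: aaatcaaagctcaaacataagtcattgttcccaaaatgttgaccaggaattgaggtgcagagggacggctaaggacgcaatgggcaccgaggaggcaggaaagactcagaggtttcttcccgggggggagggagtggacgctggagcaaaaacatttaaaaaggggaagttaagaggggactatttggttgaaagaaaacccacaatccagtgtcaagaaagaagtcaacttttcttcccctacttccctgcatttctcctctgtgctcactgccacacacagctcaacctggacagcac
LILRB1, downstream start: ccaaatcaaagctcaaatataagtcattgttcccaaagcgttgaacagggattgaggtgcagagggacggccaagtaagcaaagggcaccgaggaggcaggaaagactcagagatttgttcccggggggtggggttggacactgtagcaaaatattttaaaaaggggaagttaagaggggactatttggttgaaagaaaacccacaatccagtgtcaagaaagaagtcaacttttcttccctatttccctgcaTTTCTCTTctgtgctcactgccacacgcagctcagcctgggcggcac
LILRB1, upstream start: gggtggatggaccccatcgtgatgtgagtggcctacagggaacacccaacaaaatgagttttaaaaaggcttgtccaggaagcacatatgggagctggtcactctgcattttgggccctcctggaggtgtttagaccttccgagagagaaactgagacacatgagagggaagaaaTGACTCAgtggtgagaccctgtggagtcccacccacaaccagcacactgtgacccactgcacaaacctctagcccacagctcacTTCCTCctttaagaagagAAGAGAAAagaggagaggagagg

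Motifs were searched on both strands. The AP-1 motif TGANTCA was found in 1 of the 13 windows, the upstream LILRB1 window at position -75, and in 7.71% of 35116 RefSeq windows. The CRE motif TGACGTCA, the palindrome bound by ATF and JDP family dimers, was found in none of the 13 and in 1.85% of all windows. The interferon regulatory factor core AANNGAAA was found in 4 member windows (3 of LILRB1 and 1 of LILRB4) and in 22.8% of all. The downstream LILRB1 window printed above overlaps a further LILRB1 window, chr19:54630267-54630566, and the same match was counted in both. The PU.1 core GAGGAA, printed above as TTCCTC where it lies on the other strand, was found in 4 (LILRB3, LILRA5, LILRB1 and LILRB4) and in 27.9% of all. These matches describe letters in these windows and were not tied to binding. Over the 70 pairs of windows from different members, identity after global alignment ranged from 43.2% to 93.7% with a median of 49.5%. The highest was between a window of LILRA1 and the downstream LILRB1 window, and the LILRA5 window was 70.3% identical to the LILRB2 window printed above.

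IRF2BP2 knockdown went with much higher LILRB3, LILRA6 and LILRA5 messages. These 3 genes were close to the detection floor in control THP1 cells and were at 350.4 normalized counts or above in all 6 knockdown libraries. LILRB2, already abundant in control cells, was also higher in every knockdown library, while LILRA2, LILRA1 and LILRB1 overlapped with control. In limma on log2(normalized count + 1), 3 of the 7 members tested rose, none fell and 4 were not called at an adjusted p under 0.05, beside 1.79% of 12738 genes called in either direction and 1.54% called higher. LILRA6 averaged 8.17 normalized counts in shRNA control and so passed the filter, a mean of 10 over the libraries compared, through the knockdown libraries. The members' median log2 change was 1.98, against -0.029 over all genes tested. In bulk samples, a change in the share of cells that make a message and a change in message per cell cannot be told apart.

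The paired receptors LILRB3 and LILRA6 are the inhibitory and the activating form of one outer structure, and both rose. LILRB3 had 350.4, 360.2 and 394 normalized counts with shRNA 1 and 486, 629.9 and 4437 with shRNA 2, against 6.97 and 15.0 in the shRNA control libraries. All 6 knockdown libraries were above both controls, in which the gene had 7 and 16 reads. LILRB3 rose by a log2 change of 5.82 ± 0.79 (SE, limma adjusted p = 0.00367). LILRA6 had 548, 469.6 and 382 normalized counts with shRNA 1 and 654, 668 and 3582 with shRNA 2, against 6.97 and 9.37 in the shRNA control libraries. Again the groups did not overlap, and the controls held 7 and 10 reads. LILRA6 rose by 6.33 ± 0.66 (SE, limma adjusted p = 0.00268). It passed the filter through the knockdown libraries, as given above, and with no filter its limma adjusted p was 0.00258. Because reads of the pair can be exchanged, their sum was also followed, and it was 776 to 8019 normalized counts in the knockdown libraries, against 13.9 and 24.4 in the shRNA control libraries. LILRA6 held 44.7% to 61.0% of that sum in knockdown libraries, so neither gene alone carried the increase as counted.

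LILRA5 is an activating receptor of monocytes and neutrophils that signals through FcRγ. LILRA5 had 611, 614 and 628 normalized counts with shRNA 1 and 544, 656 and 4459 with shRNA 2, against 13.9 and 24.4 in the shRNA control libraries. Of the 6 knockdown libraries, 5 lay between 544 and 656, and shRNA 2 replicate 3 lay far above them. LILRA5 rose by 5.45 ± 0.67 (SE, limma adjusted p = 0.00329). The change of all 3 genes was also called with either hairpin alone, beside 160 (shRNA 1) and 189 (shRNA 2) of 12738 genes. With shRNA 1 it was 5.03 for LILRB3, 5.67 for LILRA6 and 4.99 for LILRA5 (log2). With shRNA 2, whose mean IRF2BP2 message was not below that of shRNA control, it was 6.62, 6.999 and 5.91 in the same order. Without shRNA 2 replicate 3 the same 3 members were called, at 5.27 ± 0.37 for LILRB3, 5.88 ± 0.31 for LILRA6 and 4.97 ± 0.28 for LILRA5 (log2 ± SE, 1.76% of 12785 genes called). Leaving out shRNA control replicate 1 ended the call for LILRA5 (limma adjusted p = 0.0648) and LILRB3 (limma adjusted p = 0.0962) and kept that of LILRA6 (limma adjusted p = 0.0454), with the control then resting on 1 library.

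The MHC class I receptors of the family are the inhibitory LILRB2 and LILRB1 and the activating LILRA1, which binds free heavy chains. LILRB2 had 2680.2, 2289.9 and 1194 normalized counts with shRNA 1 and 2781, 2855 and 10621 with shRNA 2, against 813 and 677 in the shRNA control libraries. Each knockdown library was above both controls, the lowest being shRNA 1 replicate 3. The log2 change of LILRB2 was 1.98 ± 0.59 (SE, 95% interval 0.69 to 3.26), which was not called (limma adjusted p = 0.136). It was called with all 5 control libraries (log2 1.89, limma adjusted p = 0.00670), without the 3 libraries that stand apart (log2 1.83, limma adjusted p = 0.000104) and with shRNA 2 alone (limma adjusted p = 0.0435). It was not called without shRNA 2 replicate 3 (log2 1.60 ± 0.36, SE, limma adjusted p = 0.0571), with shRNA 2 alone once that library was left out (log2 1.92, limma adjusted p = 0.132) or with shRNA 1 alone (log2 1.39, limma adjusted p = 0.256).

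LILRB1 had 447, 297 and 76.9 normalized counts with shRNA 1 and 671, 515 and 1204 with shRNA 2, against 407 and 232 in the shRNA control libraries. The knockdown values lay on both sides of control, with shRNA 1 replicate 3 lowest of all. The log2 change of LILRB1 was 0.39 ± 0.75 (SE, 95% interval -1.24 to 2.02, limma adjusted p = 0.860). LILRA1 had 111, 45.5 and 28.0 normalized counts with shRNA 1 and 149.8, 109 and 279 with shRNA 2, against 79.6 and 72.2 in the shRNA control libraries. The groups overlapped here too, 2 libraries of shRNA 1 being below and all 3 of shRNA 2 above the controls. The log2 change of LILRA1 was 0.29 ± 0.69 (SE, 95% interval -1.21 to 1.80, limma adjusted p = 0.887). With shRNA 1 alone the sign of both was negative, at -0.50 for LILRB1 and -0.53 for LILRA1.

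LILRA2 is an activating receptor that recognises immunoglobulins cleaved by microbial proteases, and it was the most abundant member. LILRA2 had 4891, 3854 and 1604 normalized counts with shRNA 1 and 4911, 5958 and 18312 with shRNA 2, against 3301 and 2396 in the shRNA control libraries. All 3 shRNA 2 libraries and 2 shRNA 1 libraries were above both controls, and shRNA 1 replicate 3 was below both. The log2 change of LILRA2 was 0.84 ± 0.65 (SE, 95% interval -0.57 to 2.25, limma adjusted p = 0.620). Without shRNA 2 replicate 3 it was 0.47 ± 0.47 (SE, limma adjusted p = 0.630). Without the 3 libraries that stand apart LILRA2 was called (log2 0.78 ± 0.22, limma adjusted p = 0.0386).

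LILRB4 is an inhibitory receptor of monocytic cells and a target studied in acute myeloid leukaemia. It was nearly undetected here, with 8.26, 1.42 and 0 normalized counts with shRNA 1 and 1.90, 10.1 and 9.65 with shRNA 2, against 1.99 and 0 in shRNA control. Over all 19 libraries it had 42 reads in total and at most 10 in one library. It did not pass the filter of a mean of 10 normalized counts in any comparison and is given no fold change.

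**Figure D1:**
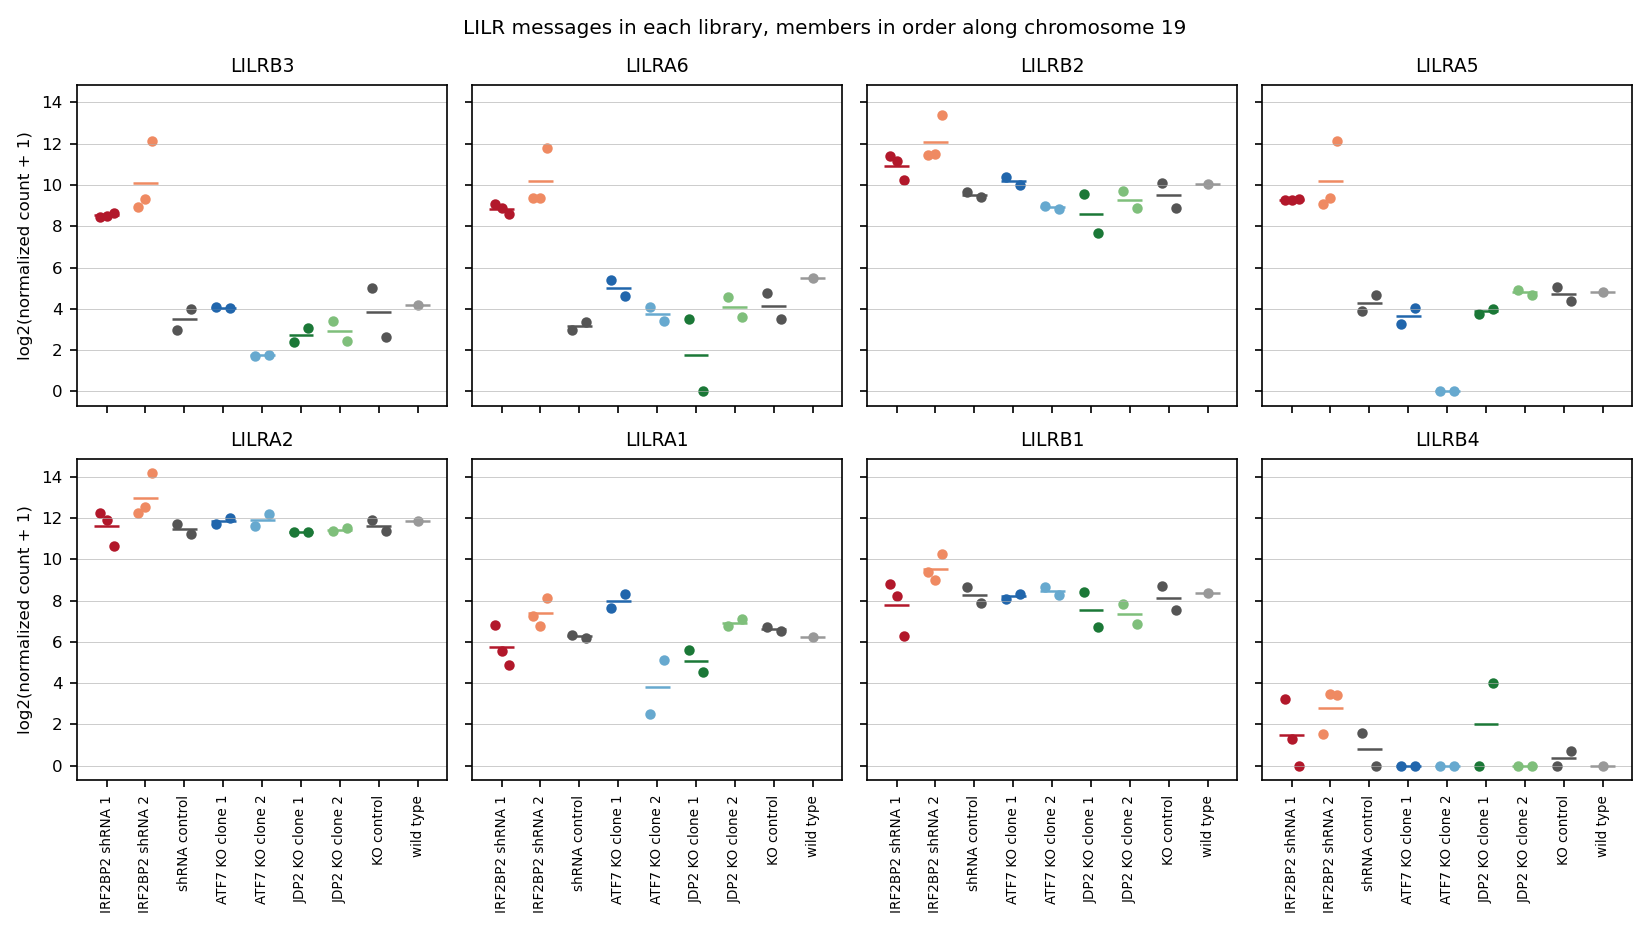
Normalized counts of the 8 LILR genes on a log2(count + 1) axis, 1 point per library and a line at the mean of each group, with the genes in order along chromosome 19 from top left. LILRB3, LILRA6 and LILRA5 are high in all 6 IRF2BP2 knockdown libraries, with shRNA 2 replicate 3 highest at 4437, 3582 and 4459 normalized counts, and LILRB4 is near 0 throughout.

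The knockdown values were next set against all other libraries, knockout clones included. For 4 members, LILRB3, LILRA6, LILRA5 and LILRB2, all 6 knockdown libraries were above both shRNA control libraries, as were 11.1% of 12738 genes. For 3 of these, LILRB3, LILRA6 and LILRA5, all 6 were also above each of the 13 other libraries, as were 3.69% of 13021 genes. With all 5 control libraries, 4 members rose (limma, 7.64% of 13021 genes called higher): LILRB3 by 5.55 ± 0.63, LILRA6 by 5.49 ± 0.69, LILRA5 by 5.16 ± 0.65 and LILRB2 by 1.89 ± 0.44 (log2 ± SE). The same 4 were called when shRNA 2 replicate 3 was left out, beside 1683 of 13053 genes called in either direction. Their log2 changes were then 4.996 for LILRB3, 5.03 for LILRA6, 4.68 for LILRA5 and 1.52 for LILRB2.

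The authors' deposited table for IRF2BP2 knockdown, a DESeq2 comparison labelled against controls, called 17.5% of 13048 genes at an adjusted p under 0.05. Its base mean of LILRB3, 357.65, equals the mean over all 19 libraries. Its changes differ in method from the limma changes above and need not rest on the same controls. In the authors' deposited table LILRB3 had a log2 change of 4.14 ± 0.45 (SE, adjusted p = 4.33e-17) and LILRA6 3.92 ± 0.45 (adjusted p = 6.68e-16). The authors' deposited table also called LILRB2 (1.83 ± 0.36, adjusted p = 1.36e-05) and LILRA2 (0.92 ± 0.32, adjusted p = 0.0286). For LILRA5 the authors' deposited table gives a log2 change of 3.96 ± 0.45 and no p. LILRB1 (adjusted p = 0.217) and LILRA1 (adjusted p = 0.647) were not called in the authors' deposited table.

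The library labelled shRNA 2 replicate 3 was the highest of all 19 for 6 members. Its value was 7.04 times the next highest knockdown library for LILRB3, 6.80 times for LILRA5 and 5.36 times for LILRA6. The ratio was 3.72 for LILRB2, 3.07 for LILRA2, 1.86 for LILRA1 and 1.79 for LILRB1, while for LILRB4, near 0, it was 0.957. The hairpins were therefore compared with and without it. None of the 7 tested members was called, with 0% of 12738 genes called in limma, although 6 members had an unadjusted p under 0.05 beside 917 genes in all. The log2 differences, shRNA 2 minus shRNA 1, were 0.92 for LILRA5 to 1.78 for LILRB1, with a limma adjusted p of 0.589 for every member. Without shRNA 2 replicate 3 the difference was -0.05 for LILRA5 and 0.59 for LILRB3, and stayed at 1.27 for LILRA1 and 1.43 for LILRB1.

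The 3 members that rose lie in the group nearer the centromere. The 4 members of the group nearer the centromere had log2 changes of 5.82 (LILRB3), 6.33 (LILRA6), 1.98 (LILRB2) and 5.45 (LILRA5). Those tested in the group nearer the telomere had 0.84 (LILRA2), 0.29 (LILRA1) and 0.39 (LILRB1). The genes between the groups were not called, the collagen receptor LAIR1 at 0.76 and LENG8 at -0.99. Within 250 kb of the members 13 other genes were tested and 1 was called, beside 1.79% of 12738 genes called in either direction. It was FCAR, the activating IgA receptor beyond the telomeric group, which rose by 3.19 (limma adjusted p = 0.00562). The median log2 change of the 13 was -0.071. This ordering was read after the values were known and has no test.

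**Figure D2:**
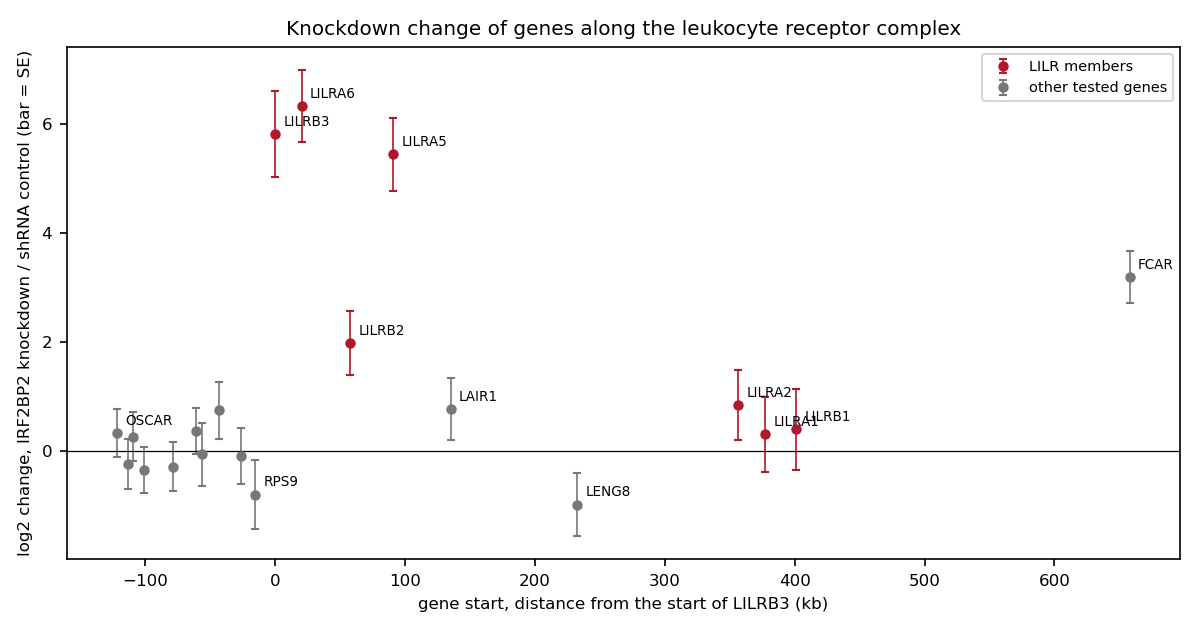
Log2 change in IRF2BP2 knockdown against shRNA control (point, with SE) of every tested gene within 250 kb of the LILR genes, by the distance of its start from that of LILRB3 in kb. LILRB3, LILRA6 and LILRA5 lie above 5, the tested members of the telomeric group lie below 1, and FCAR at 658 kb is the other gene that was called.

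Relative levels within the family were compared per kilobase of exon, since the genes differ in length. The summed LILR level was 4729 ± 4905 normalized counts per kb in knockdown (SD, n = 6), or 2745 ± 740.0 without shRNA 2 replicate 3 (SD, n = 5), and 1010.6 ± 201 in shRNA control (SD, n = 2). The group nearer the centromere (LILRB3, LILRA6, LILRB2 and LILRA5) made up 57.2% to 75.7% of the sum in knockdown libraries, against 24.8% and 29.1% in shRNA control. The highest of the 13 libraries outside the knockdown, at 35.3%, was below the lowest knockdown library. In the mean of the knockdown libraries LILRA2 held 31.7% of the sum, LILRB2 27.6%, LILRA5 18.5%, LILRA6 11.1%, LILRB3 6.48% and LILRB1 3.61%. Those shares were 32.6%, 28.3%, 17.7%, 10.7%, 5.73% and 3.86%, in the same order, without shRNA 2 replicate 3. In the mean of all 5 control libraries the order was LILRA2 (62.4%), LILRB2 (24.1%), LILRB1 (7.90%), LILRA1, LILRA5, LILRA6, LILRB3 and LILRB4. The inhibitory members as a class took 35.0% to 40.6% in knockdown and 33.7% and 34.1% in shRNA control. Over the 13 libraries outside the knockdown they took 14.9% to 39.0%, a range that overlaps with that of the knockdown.

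**Figure D3:**
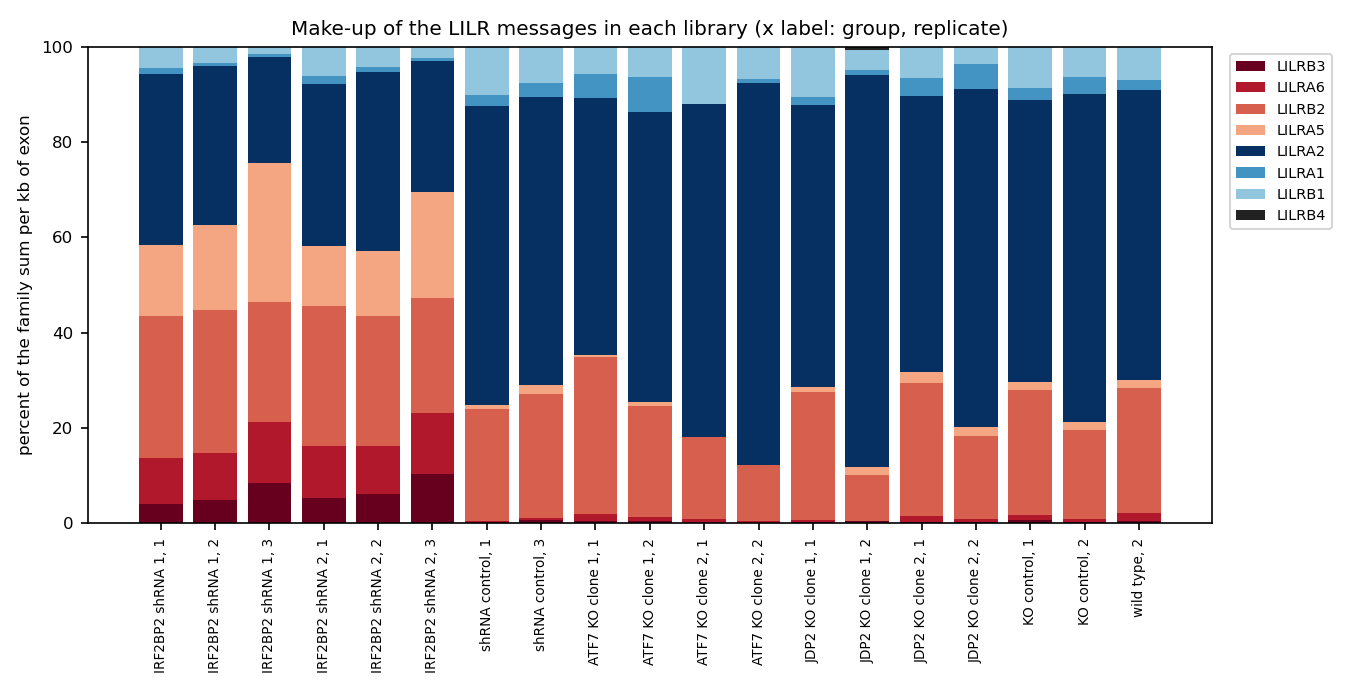
Share of each LILR gene in the summed family level per kb of exon, in percent, 1 bar per library. The red shades, the group nearer the centromere, fill 57.2% to 75.7% of the 6 knockdown bars and at most 35.3% of any other bar, most of the difference being LILRA5, LILRA6 and LILRB3.

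Over the 19 libraries the log2 levels of LILRB3, LILRA6, LILRB2 and LILRA5 correlated at r = 0.81 to 0.95 in the 6 pairs, and over the 13 libraries without the knockdown at 0.07 to 0.87. Pairs among LILRA2, LILRA1 and LILRB1 correlated at 0.34 to 0.82 over 19 libraries and at -0.074 to 0.49 over the 13. Without shRNA 2 replicate 3 the ranges over 18 libraries were 0.75 to 0.93 for the first set and 0.21 to 0.78 for the second. These are descriptions, since libraries share groups and depth, and the first range includes the difference between knockdown and other libraries. The 5 of 11072 genes whose level followed the members' mean most closely over 19 libraries were ARHGAP30 (r = 0.977), THEMIS2 (0.972), PLA2G15 (0.950), RAC2 (0.949) and TAPBPL (0.946). Their r lay between 0.902 and 0.962 when shRNA 2 replicate 3 was left out. ARHGAP30 had 13131 to 37715 normalized counts in knockdown and 9818 to 13559 in the 13 other libraries.

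In the same knockdown libraries the ITAM adaptor genes FCER1G and TYROBP and the kinase gene LYN rose. Of 11 signalling partners tested, 3 rose, none fell and 8 were not called, beside 1.54% of 12738 genes called higher. Their median log2 change was 0.63. FCER1G, which encodes FcRγ, had 1260.3 to 6150.1 normalized counts in knockdown, against 228 and 287 in shRNA control, and rose by 3.22 ± 0.49 (SE, limma adjusted p = 0.00562). TYROBP, which encodes the related adaptor DAP12, had 3343 to 19098 in knockdown (at most 7978 without shRNA 2 replicate 3), against 398 and 713 in shRNA control, and rose by 3.51 ± 0.59 (SE, limma adjusted p = 0.00987). LYN, a kinase that phosphorylates ITAM and ITIM motifs, rose by 1.44 ± 0.33 (SE, limma adjusted p = 0.0493). The ITIM phosphatase genes were not called, PTPN6 at 0.24 and PTPN11 at -0.54, nor was SYK at 0.62.

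Among 13 tested ligands reported for the family, 3 rose and 10 were not called, beside 1.54% of 12738 genes called higher. Their median log2 change was 1.15. S100A8 and S100A9, the subunits of calprotectin, gave the larger changes, and S100A9 had 3926 to 40910.3 normalized counts in knockdown (at most 8237 without shRNA 2 replicate 3), against 388 and 553 in shRNA control (log2 4.08 ± 0.69, SE, limma adjusted p = 0.0101). S100A8 had 83.5 to 1051.7 in knockdown, against 1.99 and 18.7 in shRNA control (log2 5.34 ± 0.92, SE, limma adjusted p = 0.0113). FN1, which encodes fibronectin, a ligand of LILRB4, rose by 2.42 ± 0.55 (SE, limma adjusted p = 0.0449). HLA-B, an MHC class I heavy chain, at 1.23 and B2M, the light chain, at 1.47 were not called, nor was APOE at -1.52.

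Of the other paired receptors of myeloid cells, 2 of 13 tested rose, beside 1.54% of 12738 genes called higher, with a median log2 change of 1.35. They were TREM1, a DAP12-coupled amplifier of inflammation (log2 3.69 ± 0.59, SE, limma adjusted p = 0.00789), and CD300C (2.39 ± 0.52, SE, limma adjusted p = 0.0380). Of the other immunoglobulin-like receptors of the complex, 1 of 3 tested rose, beside the same share of all genes. It was FCAR, which also signals through FcRγ and had 316 to 1518 normalized counts in knockdown, against 71.7 and 58.1 in shRNA control. None of 11 neighbouring genes of other function was called, at a median of -0.24, and the most abundant of them, RPS9, was at -0.81 and PRPF31 at -0.36. Without shRNA 2 replicate 3, FCER1G (3.16 ± 0.52), TYROBP (3.17 ± 0.42), S100A9 (3.60 ± 0.32), S100A8 (4.99 ± 0.90), TREM1 (3.45 ± 0.54), CD300C (2.05 ± 0.28) and FCAR (3.14 ± 0.51) were called and LYN (1.41 ± 0.32, limma adjusted p = 0.0608) and FN1 (2.35 ± 0.57, limma adjusted p = 0.0754) were not (log2 ± SE). The lists then had 2 of 11 partners, 2 of 13 ligands and 4 of 13 paired receptors called, beside 1.76% of 12785 genes. With all 5 controls, 5 of 11 signalling partners, 7 of 13 ligands and 7 of 13 paired receptors rose, beside 7.64% of 13021 genes called higher. ITGAM, the monocytic marker given above, was higher in the same libraries, and its part in these changes was not tested.

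**Figure D4:**
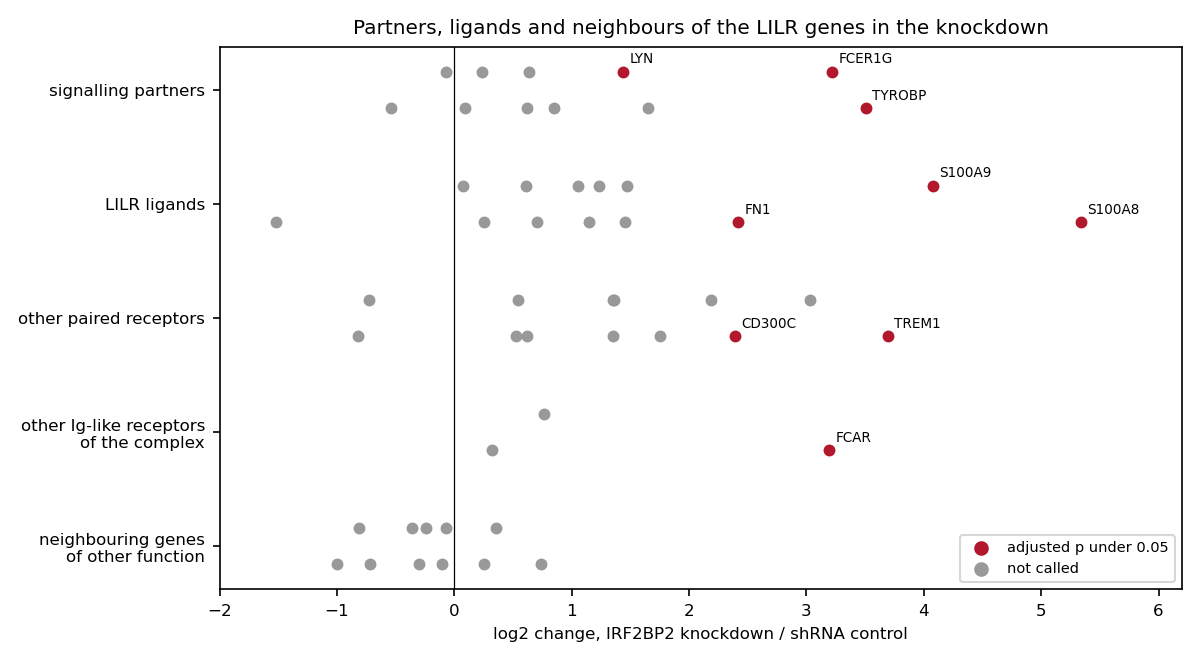
Log2 change in IRF2BP2 knockdown against shRNA control of the tested genes of 5 lists, 1 point per gene, red where the limma adjusted p was under 0.05. FCER1G at 3.22, TYROBP at 3.51, S100A9 at 4.08, TREM1 at 3.69 and FCAR at 3.19 are among those that rose, and none of the neighbouring genes did.

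No member was called in ATF7 knockout cells. Of the 8 members, 6 were tested (LILRB3 and LILRB4 did not pass the filter) and 0 were called, beside 0.25% of 13208 genes, with 1 member at an unadjusted p under 0.05. The members' median log2 change was 0.14, against 0.035 over all genes. LILRA5 had 8.62 and 15.2 normalized counts in ATF7 knockout clone 1 and 0 and 0 in clone 2, against 32.6 and 19.7 in knockout control. Both clones were below both controls and clone 2 had no read, yet at these low levels the log2 change of -2.90 ± 1.22 (SE, 95% interval -5.56 to -0.25) was not called (limma adjusted p = 0.641). LILRB2 had 1357 and 1032 in clone 1 and 508 and 456 in clone 2, against 1102 and 472 in knockout control, a log2 change of 0.07 ± 0.60 with overlapping groups.

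The 2 ATF7 clones lay apart for LILRA1. It had 4.63 and 33.6 normalized counts in clone 2 and 201 and 315 in clone 1, with 105 and 90.2 in knockout control, so clone 2 was below and clone 1 above the control libraries. For clone 2 minus clone 1 the log2 difference of LILRA1 was -4.18 ± 0.76 (SE, limma adjusted p = 0.0614) and that of LILRA5 -3.64 ± 1.05 (SE, limma adjusted p = 0.303). Neither was called, so the count was 0 of 6 members, with 2 at an unadjusted p under 0.05, beside 0.303% of 13208 genes called. DESeq2 on the recovered reads called LILRA1 in this comparison (adjusted p = 0.000194) and edgeR did not (adjusted p = 0.125). With the replicate number as a block the limma adjusted p of LILRA1 was 0.0414. The clones had opposite signs against knockout control, with a log2 change of LILRA1 of 1.36 (clone 1) and -2.82 (clone 2).

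LILRB3 had 16.2 and 15.2 normalized counts in ATF7 knockout clone 1 and 2.31 and 2.40 in clone 2, against 31.5 and 5.27 in knockout control. LILRA6 had 41.0 and 23.9 in clone 1 and 16.2 and 9.60 in clone 2, against 26.1 and 10.5 in knockout control. Clone 2 was below both controls for LILRB3, LILRA6 overlapped with control, and neither gene was near its knockdown level in any ATF7 library. LILRA2 had 3379 and 4058 in clone 1 and 3121 and 4751 in clone 2, against 3766 and 2640.3 in knockout control. LILRB1 had 273 and 319 in clone 1 and 408 and 307 in clone 2, against 418 and 183 in knockout control. Both of these overlapped with control, with log2 changes of 0.26 ± 0.26 for LILRA2 and 0.22 ± 0.48 for LILRB1 (SE). LILRB4 had no read in any ATF7 library.

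JDP2 knockout cells gave no called member either. Of 6 members tested 0 were called, beside 0.674% of 13208 genes, and none had an unadjusted p under 0.05. The members' median log2 change was -0.58, against 0.0049 over all genes, and all 6 point estimates were negative. LILRB2 had 761 and 201 normalized counts in JDP2 knockout clone 1 and 830.0 and 475 in clone 2, against 1102 and 472 in knockout control. LILRB1 had 345 and 103 in clone 1 and 223 and 116 in clone 2, against 418 and 183 in knockout control. For LILRB2, clone 2 and 1 library of clone 1 lay within the control range, and clone 1 replicate 2, a library that stands apart, lay below it. For LILRB1, 1 library of each clone lay within the control range and 1 below it. The log2 change was -0.54 ± 0.60 for LILRB2 (95% interval -1.84 to 0.76, limma adjusted p = 0.693) and -0.67 ± 0.48 for LILRB1 (95% interval -1.71 to 0.37, limma adjusted p = 0.505).

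LILRA6 had 10.5 and 0 normalized counts in JDP2 knockout clone 1 and 22.4 and 11.2 in clone 2, against 26.1 and 10.5 in knockout control. LILRB3 had 4.22 and 7.46 in clone 1 and 9.60 and 4.49 in clone 2, against 31.5 and 5.27 in knockout control. LILRA5 had 12.7 and 14.9 in clone 1 and 29.4 and 24.7 in clone 2, against 32.6 and 19.7 in knockout control. These 3 genes were low in JDP2 cells and in control, where few reads limit what can be seen. LILRA2 had 2561 and 2581 in clone 1 and 2617 and 2929 in clone 2, against 3766 and 2640.3 in knockout control, a log2 change of -0.24 ± 0.26 that was not called. LILRA1 had 47.4 and 22.4 in clone 1 and 108 and 137 in clone 2, against 105 and 90.2 in knockout control, so clone 1 was below and clone 2 above the controls. Between JDP2 clones 0 of 6 members were called, beside 0.136% of 13208 genes, with 1 member, LILRA1, at an unadjusted p under 0.05 (clone 2 minus clone 1 1.86 ± 0.76, limma adjusted p = 0.993). LILRB4 had 0 and 14.9 in clone 1 and 0 and 0 in clone 2, the clone 1 value of 14.9 belonging to a library that stands apart.

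The wild-type library, with no replicate, had 3675 normalized counts of LILRA2, 1044 of LILRB2, 324 of LILRB1, 75.3 of LILRA1, 43.5 of LILRA6, 27.6 of LILRA5, 17.0 of LILRB3 and 0 of LILRB4. These lay within the range of the 12 remaining libraries outside the knockdown except for LILRA6, which was the highest of the 13.

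The ATF7 and JDP2 comparisons share the knockout control libraries, so their values were set side by side and the knockouts were compared directly. JDP2 knockout against ATF7 knockout called 0 of 6 members, beside 0% of 13208 genes in limma, with 3 members and 289 genes at an unadjusted p under 0.05. The 3 were LILRA5 (2.52 ± 1.00), LILRA2 (-0.50 ± 0.21) and LILRB1 (-0.89 ± 0.39), log2 of JDP2 over ATF7 with SE, each with a limma adjusted p of 0.999. edgeR on the recovered reads also called 0 members in this comparison, between hairpins, between JDP2 clones and in either knockout against knockout control. DESeq2 called none of the members it gave an adjusted p there, and it gave none for LILRA5 and LILRA6 in either knockout against knockout control. The lists of ligands, partners, paired receptors and neighbours had no gene called in either knockout against knockout control, beside 0.25% (ATF7) and 0.674% (JDP2) of 13208 genes. With all 5 controls, 1 of 13 ligands, 1 of 11 partners and 1 of 13 paired receptors fell in JDP2 knockout. In that fit 339 of 13021 genes were called in either direction. None of these lists had a gene called in ATF7 knockout with all 5 controls.

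The IRF2BP2 knockdown change was then compared with the mean of the ATF7 and JDP2 knockout changes, each against its own control, in 1 model. The difference was called for LILRA5 at 7.09 ± 1.28 (SE, limma adjusted p = 0.0127) and for LILRA6 at 6.82 ± 1.27 (SE, limma adjusted p = 0.0156), beside 1.41% of 13057 genes. For LILRB3 the difference was 6.79 ± 1.23 (SE), given as a value only. LILRB3 averaged 7.73 normalized counts in the knockouts and did not pass the filter in either knockout comparison. LILRB2 differed by 2.21 ± 0.87 without a call (limma adjusted p = 0.195). Both calls ended when any 1 of shRNA control replicates 1 and 3 or knockout control replicates 1 and 2 was left out, with the log2 difference of LILRA5 then between 6.71 and 7.47. They were kept without the 3 libraries that stand apart.

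**Figure D5:**
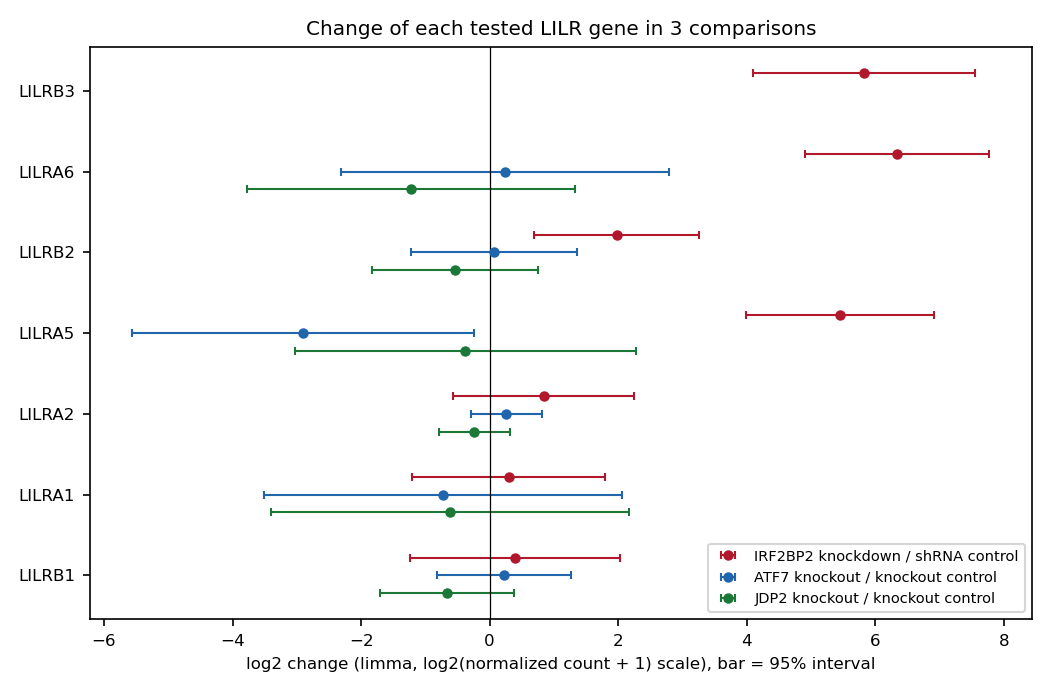
Log2 change of each tested LILR gene (point, with its 95% interval) in IRF2BP2 knockdown against shRNA control (red), ATF7 knockout against knockout control (blue) and JDP2 knockout against knockout control (green). LILRB3, LILRA6 and LILRA5 lie at 5.82, 6.33 and 5.45 in the knockdown, while every JDP2 interval and all ATF7 intervals but that of LILRA5 span 0, and LILRB3 was not tested in the knockouts.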

How the data were processed

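THP1 RNA-seq was analysed in 19 libraries. 2 further libraries, labelled low quality, were not analysed here, and 0 columns of per-sample values were left unused. The authors mapped to hg38, counted with featureCounts and normalized with DESeq2, per the submitters' processing notes. Aligner, annotation, strandedness and versions are not stated in the sources at hand, nor is whether alternative sequences of the LILR region were in the index, which could remove reads that match several copies. The deposited table holds normalized signal (counts divided by size factors), and the authors' deposited tables hold log2 fold changes with standard errors, test scores and p-values. Whole reads were recovered from the steps of the deposited signal: 100% of values were whole within 0.01, giving 28650241 to 60196382 counts per library.

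From these, log2(normalized count + 1) was tested with limma 3.58.1 (trended empirical Bayes, R 4.3.3) on genes averaging at least 10 normalized counts over the libraries of a fit, with Benjamini-Hochberg adjustment over all genes and a threshold of 0.05. A fold change on this scale understates that of low genes. edgeR 4.0.16 and DESeq2 1.42.0 on recovered reads were alternatives and called 124 and 682 genes in the knockdown, against 228 by limma. The fits were tested on simulated data. Levels per kb used GENCODE v29 exon lengths. Promoter windows were aligned globally (Python 3.11.15). Named genes were all 8 members, up to 4 called genes by lowest p of each list or the 2 most abundant where none was called, and the 5 genes most correlated with the members' mean. Uncalled list genes named outside this rule were PTPN6, PTPN11, SYK, HLA-B, B2M, APOE, LAIR1 and LENG8. The members and lists were chosen with earlier results of these data known.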

Additional observations from a re-analysis of the deposited data

Results flagged for a closer look

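In 7 of 31 gene and group combinations with 4 to 6 libraries, 1 library was flagged by its gap to the nearest value relative to the range (Dixon's rule). The combinations share libraries and the counts are skewed, so no chance rate is set beside this count. In IRF2BP2 knockdown the highest library was far above the other 5 for LILRA2 (18312.5 normalized counts), LILRA5 (4459), LILRA6 (3582), LILRB2 (10621) and LILRB3 (4437), and each time it was shRNA 2 replicate 3, whose IRF2BP2 message goes against its label. In JDP2 knockout the highest library was flagged for LILRA2 (2929 normalized counts, clone 2 replicate 2), where the others lay close together at 2561 to 2617. That value lay within the knockout control range of 2640.3 to 3766. For LILRB4 the flag fell on 14.9 normalized counts (clone 1 replicate 2), the others being at 0. The knockdown change differed from the knockout change, by a test of the difference, for LILRA5 (log2 7.09) and LILRA6 (6.82). These calls ended when any 1 shRNA control or knockout control library was left out. LILRB3 gave 6.79 and did not pass the expression filter in either knockout comparison.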

How the results depend on the processing

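Of 7 tested members, the knockdown called 3 under pseudocounts of 0.5 and 5, quantile normalization and edgeR, and 3 of 8 with no filter. With LILRA6 and LILRB3 summed, the sum and LILRA5 were called. DESeq2 called 1 (LILRB2) and gave no p for LILRA5, LILRA6 and LILRB3, and 5 were called without the 3 libraries that stand apart. Leaving out each library in turn gave 1 to 4 (11 to 609 genes in all), the low end being without shRNA control replicate 1. Genes called numbered 228 with shRNA control, 1651 with all 5 controls, 1514 with array weights, 1251 without the 3 libraries that stand apart, 682 with DESeq2 and 124 with edgeR. The difference from the knockouts called 0 to 3 members and 0 to 294 genes when each library was left out. Between hairpins array weights called 6 members among 3962 of 12738 genes.

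Same-numbered replicates, as deviations from their group means, correlated at -0.31 to 0.37 in the knockdown arm (3 of 7 pairs over 0.1). In the knockout arm they correlated at -0.53 to 0.57 (10 of 20). Groups of that arm hold 2 libraries, so each value occurs for both replicate numbers and the 20 are not separate observations. Numbers were not taken to pair samples. With the replicate block the knockdown still called 3 members (209 genes), the difference from the knockouts 3 (559 genes against 184) and the ATF7 clones 1 (93 genes against 40). LILRA1 was also the 1 member called between ATF7 clones with a pseudocount of 5, DESeq2, array weights or without the 3 libraries that stand apart, and leaving out each library gave 0 to 1.

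Some uncalled log2 changes turned sign, and the cause was not tested. In the knockdown LILRA1 was -0.53 with shRNA 1 alone and -0.16 with all 5 controls without shRNA 2 replicate 3, and LILRB1 was -0.50 with shRNA 1 alone; leaving out each library gave -0.0189 to 0.63 for LILRA1 and -0.0147 to 0.86 for LILRB1. In ATF7 knockout LILRA1 was 0.53 with edgeR, 0.51 with DESeq2, 0.26 with array weights and 1.36 with clone 1 alone. LILRA6 was -0.17 with quantile normalization, -0.18 summed with LILRB3 and -0.39 with clone 2 alone, and LILRB2 was -0.057 with all 5 controls and -0.58 with clone 2 alone. Leaving out each library gave -1.54 to 0.40 for LILRA1, -0.37 to 0.86 for LILRA6, -0.37 to 0.82 for LILRB1 and -0.55 to 0.68 for LILRB2. In JDP2 knockout array weights gave 0.0198 for LILRA1, 0.0608 for LILRA5, 0.19 for LILRA6 and 0.11 for LILRB2, and clone 2 alone 0.31 for LILRA1 and 0.0825 for LILRA5. Leaving out each library gave -0.50 to 0.0150 for LILRA2 and -1.15 to 0.0711 for LILRB2. Controls with 7 to 26 reads limit the size of the LILRB3, LILRA6 and LILRA5 changes more than their direction.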
